A study of Saccharomyces cerevisiae with 66 samples.

Results

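The promoters of MET6 and MET13 were followed through MTAC, a mapping method in which a GpC methyltransferase, M.CviPI, is fused to the lac repressor LacI and recruited to an array of LacO sites at a viewpoint (VP). DNA that comes near the VP gains methylated cytosine in GC dinucleotides and is recovered by methylated DNA immunoprecipitation (MeDIP) and sequencing. Signal is read in nucleosome-depleted regions (NDRs), the open stretches of promoters. The members are 2 of the 4828 NDRs. They are the NDR that starts 231 bases from the start of MET6 and 457 bases from that of IES5, and the single NDR that starts within 1 kb of the start of MET13. The latter starts 772 bases from the start of MET13, 751 bases from that of SCS3 and 973 bases from that of SOH1.

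MET6 encodes the cobalamin-independent methionine synthase, which methylates homocysteine to methionine with 5-methyltetrahydrofolate. MET13 encodes the methylenetetrahydrofolate reductase that makes this methyl donor, so it supplies the last step of methionine synthesis, which the MET6 enzyme carries out. In yeast the sulfur genes are activated by Met4, which does not bind DNA by itself and is brought to promoters by Cbf1, a factor that recognises CACGTG, and by the zinc finger proteins Met31 and Met32, whose sites share a CTGTGG core. Ample methionine keeps Met4 inactive through the ubiquitin ligase subunit Met30.

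Each comparison set a targeted strain with a LacO array against a control strain without one, with 2 libraries per group. All strains were W303 derivatives with ade2-1, trp1-1, can1-100, his3-11,15 and ura3-1 and with the leu2 allele of W303. In each of them a β-estradiol-activated LexA-ERHBD-VP16AD drove LacI-SV40NLS-M.CviPI from the ADH1 locus through a lexO-GAL1 core promoter, and 2 nM β-estradiol was given. MATa strains with 256 LacO copies (marked with HIS3) at TRP2, SHC1, LSM4, PCL10, CDC43, PUS2, YBP2, OLE1, VHR1, LHS1, MBR1 or MNR2 were induced for 2 h. The TRP2 strain was grown without and with methionine, each with its own control, while 11 VPs share the 1 control pair labelled 2 h with no medium. The study's text places the SHC1 experiment in medium without methionine. MATa strains with 4, 8, 16 or 256 copies at YBP2 were induced for 1 h and share another control pair. MATa and MATα strains with 256 copies at TAF2, beside the MAT locus, also carried GAL10pr-HO (as did their controls), which switches mating type in galactose (G) but not in glucose (D). The study describes the galactose populations as a mixture of both mating types, and they are named here by the starting type. Galactose and glucose tables therefore differ in HO induction and switching as well as in sugar. Labels of the MAT libraries give 2 h of induction, while the study's methods describe β-estradiol through the whole, longer switching procedure. Libraries of the MLP1/2 mutant and of the Mlp1 fusion were not analysed here.

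The deposited tables give for each NDR the mean of the normalized reads over all libraries (base mean), the log2 fold change of the targeted over the control strain and its standard error (SE), and no value per library. Reads per NDR in the targeted and the control strain were therefore derived from base mean and fold change. These levels are approximate, and equal the reads of each strain only if the deposited fold change is the ratio of the group means. SEs were small even at few reads, such as 0.22 at an NDR of PTC2 in MATα cells in galactose, with a base mean of 2.03. Whether the fitting had made the deposited fold changes smaller was not tested. For the control pair shared by 11 VPs, the derived control level at the MET13 NDR was 2093 reads in the PCL10 table and 819 to 1172 reads in the 10 others. An NDR was called where the log2 fold change was above 0.7 and the Benjamini-Hochberg adjusted p of a two-sided normal test of fold change over SE was under 0.05. The deposited tables give no depth per library, and the median base mean of a table ran from 15.8 to 49.5 reads per NDR. Log2 fold change rose with base mean in most tables (Spearman rho over NDRs −0.31 to 0.60). The members have many reads, so the median log2 fold change of the NDRs nearest in base mean was also subtracted. That value is given below where it changes a call.

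The DNA of the members is shown because M.CviPI acts at GC and Met4 is recruited through CACGTG and CTGTGG. Each line is the first 300 bases of an NDR on the plus strand of the RefSeq assembly R64, 5′ to 3′. Capitals mark CACGTG, which reads the same on both strands, and CTGTGG or its reverse complement CCACAG. The third line is the NDR next to that of MET13, which falls just outside the 1 kb limit and shares reads with it.
MET6 NDR, chrV:342398-342697: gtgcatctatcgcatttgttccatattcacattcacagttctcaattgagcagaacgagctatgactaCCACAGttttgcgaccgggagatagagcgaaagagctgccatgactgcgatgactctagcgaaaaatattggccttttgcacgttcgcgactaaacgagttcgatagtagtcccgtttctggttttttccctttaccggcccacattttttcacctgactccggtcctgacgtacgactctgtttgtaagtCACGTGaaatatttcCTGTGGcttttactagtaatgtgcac
MET13 NDR, chrVII:271748-272047: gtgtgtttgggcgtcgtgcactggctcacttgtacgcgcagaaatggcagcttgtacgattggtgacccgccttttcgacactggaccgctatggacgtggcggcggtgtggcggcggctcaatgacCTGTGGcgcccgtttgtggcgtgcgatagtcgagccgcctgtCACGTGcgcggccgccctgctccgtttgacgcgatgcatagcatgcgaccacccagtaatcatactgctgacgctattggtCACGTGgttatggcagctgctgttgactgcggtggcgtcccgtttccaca
SCS3 NDR, chrVII:271337-271636: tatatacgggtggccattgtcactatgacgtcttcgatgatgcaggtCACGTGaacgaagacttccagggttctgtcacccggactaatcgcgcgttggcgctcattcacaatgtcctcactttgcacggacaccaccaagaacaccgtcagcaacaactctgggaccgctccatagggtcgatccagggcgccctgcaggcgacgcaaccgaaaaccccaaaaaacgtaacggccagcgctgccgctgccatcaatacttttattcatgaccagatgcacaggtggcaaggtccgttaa

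The MET6 NDR lies on chromosome V in the intergenic space between MET6, which runs leftward from 342167, and IES5, a subunit gene of the INO80 chromatin remodeller, which runs rightward from 342855. Its window held a CACGTG at 342657 to 342662 and a CTGTGG on each strand, at 342672 to 342677 on the plus and at 342466 to 342471 on the minus strand. Another CACGTG, at 342695 to 342700, begins on the last 3 bases of the window. The MET13 NDR lies on chromosome VII, 772 bases before the start of MET13 at 272520. Its first 300 bases are inside SCS3, a gene needed for growth without inositol that runs from 270997 to 272139. They held 2 CACGTG, at 271917 to 271922 and 271998 to 272003, and a CTGTGG at 271875 to 271880.

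Windows with such letters were a minority. Of 4828 windows of the same length, 4.68% held CACGTG, 6.63% CTGTGG on either strand and 0.601% both, as each member did. Among the 52 NDRs that start within 1 kb of a gene of a methionine and sulfur list, 42.3% held CACGTG and 19.2% both. The MET6 window held 16 GC and the MET13 window 36, against a median of 11 over all windows (0 to 40). Fewer GC were found in 84.8% of windows than in that of MET6, and in 99.9% than in that of MET13. Across NDRs, base mean went with the number of GC (Spearman rho 0.34 to 0.50 over the 21 tables, a description over NDRs that are not independent). GC number also moved with log2 fold change (rho −0.34 to 0.55), and its part in the results was not tested.

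The MET6 promoter was called from VPs close to it and from no other. The call was made in 3 of 21 tables, namely TRP2 without methionine, TRP2 with methionine and SHC1. These are the 3 tables whose VP is within 30 kb, and none of the 18 other tables called it (1 of the 18 had an unadjusted p under 0.05). The MET13 promoter was called in 6 tables, of which 1 had a VP within 30 kb (PCL10), 3 a VP farther away on chromosome VII (CDC43 and YBP2 with 256 copies at 2 h and 1 h) and 2 a VP on chromosome V (TRP2 without methionine and SHC1). Both promoters were called together in 2 tables, those of TRP2 without methionine and SHC1. Each table was tested on its own over all its NDRs, and 21 tables were read for each member.

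**Figure D1:**
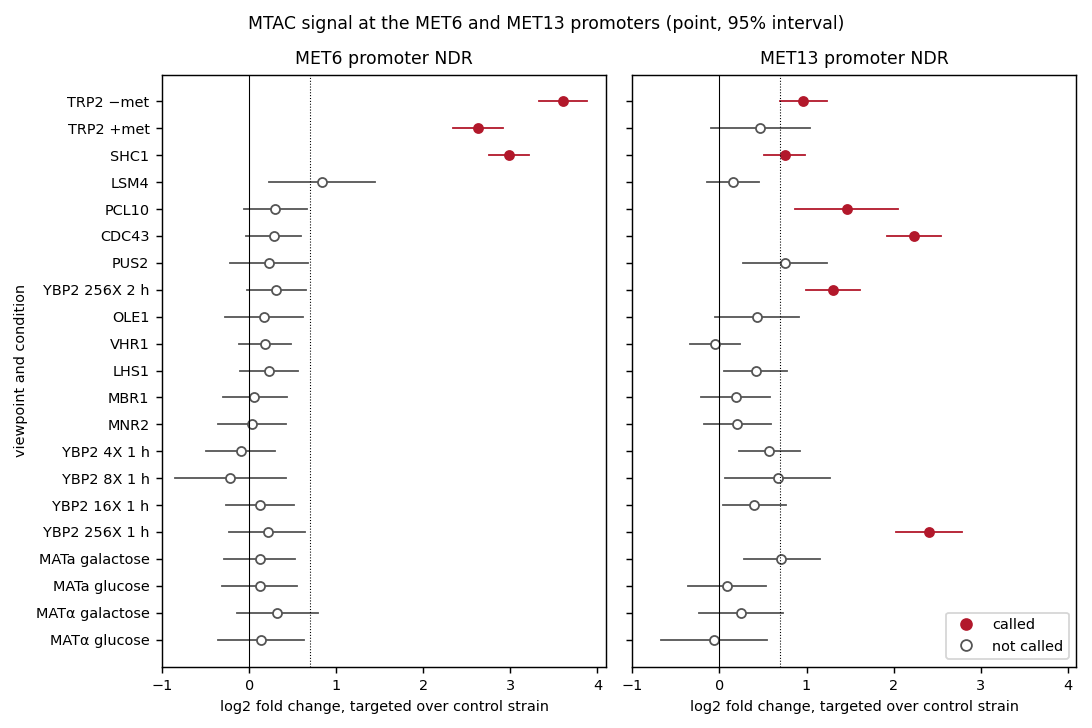
Log2 fold change of the targeted over the control strain (x axis) at the MET6 NDR (left panel) and the MET13 NDR (right panel) in each of the 21 tables (rows). Points are the fitted values with 95% intervals from the SE, filled red where called, and the dotted line marks the cutoff of 0.7. The MET6 NDR stands at 2.63 to 3.60 in its 3 called tables and at −0.22 to 0.84 elsewhere, and the MET13 NDR at 0.75 to 2.41 in its 6 called tables.

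TRP2, which encodes anthranilate synthase of tryptophan synthesis, lies 3.69 kb from the MET6 NDR (from the gene's midpoint). Without methionine the derived level at the MET6 NDR was 4072 reads in the TRP2 strain, against 335 reads in the control. This is a 12.1-fold difference, with a log2 fold change of 3.60 (SE 0.14, adjusted p = 7.0e-142), the highest among 4827 NDRs, of which 0.249% were called. With methionine it was 2076 reads in the TRP2 strain, against 336 reads in the control, a log2 fold change of 2.63 (SE 0.15, adjusted p = 2.2e-66). That was the second highest of 4828 NDRs, of which 0.124% were called. Derived control levels at MET6 were nearly equal in both media and the targeted levels were not, on scales set separately in each table.

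For each NDR the media were then set against each other, dividing the gap between both log2 fold changes by the root of their summed squared SEs. At the MET6 NDR the log2 fold change was higher without methionine by 0.97 (SE 0.20, 95% interval 0.57 to 1.37), with a Benjamini-Hochberg adjusted p of 0.00508 over 4827 NDRs. Of all NDRs 2 passed this test (0.0414%), those of MET6 and MUP1, the high-affinity methionine permease gene. The other 9 NDRs within 10 kb of that of MET6 had differences from −0.51 to 0.16 and none passed. Their SEs were 0.34 to 0.38, so a difference as large as that at MET6 could have missed the threshold there. The NDR just past the end of TRP2, 2.87 kb from that of MET6, had 3.31 (SE 0.21) without and 3.40 (SE 0.27) with methionine. After subtraction of the median of NDRs of like base mean, which was 0.16 without and −0.13 with methionine, the difference at MET6 was 0.68 and no longer passed (adjusted p = 1.000).

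At the MET13 NDR, on another chromosome from TRP2, the derived level without methionine was 1531 reads in the TRP2 strain, against 785 reads in the control. The log2 fold change was 0.96 (SE 0.14, adjusted p = 1.9e-09), the seventh highest of the table. With methionine it was 1502 reads in the TRP2 strain, against 1085 reads in the control, and the log2 fold change of 0.47 (SE 0.29, adjusted p = 0.998) was not called. Derived levels in the TRP2 strain were near each other, and that of the control was higher with methionine. The scales were set separately in each table and the fold change with methionine had the larger SE. These levels therefore do not place the gap in either strain. The difference of 0.49 (SE 0.32, 95% interval −0.13 to 1.12) did not pass the test (unadjusted p = 0.123, adjusted p = 1.000), so a call without methionine and none with it does not show that the media differ at MET13.

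**Figure D2:**
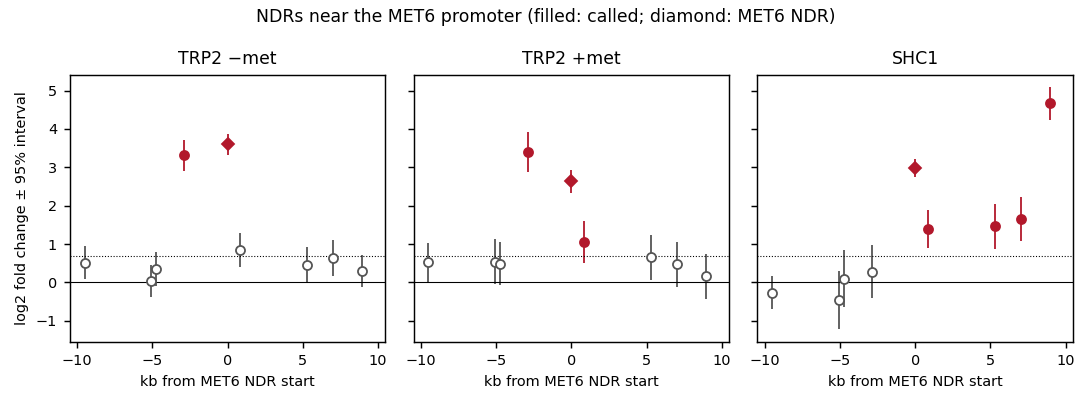
Log2 fold change with 95% interval (y axis) of the MET6 NDR and 8 of the 9 other NDRs within 10 kb of it against distance from its start in kb (x axis), for TRP2 without methionine, TRP2 with methionine and SHC1. The diamond is the MET6 NDR, filled symbols are called NDRs, and the next NDR toward IES5 (0.859 kb away) lies at 0.85, 1.05 and 1.39 in these tables while the MET6 NDR lies at 3.60, 2.63 and 2.98.

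SHC1, which encodes a sporulation-specific activator of chitin synthase, lies 10.1 kb from the MET6 NDR. There the derived level was 3145 reads in the SHC1 strain, against 399 reads in the control. Its log2 fold change of 2.98 (SE 0.12, adjusted p = 3.9e-140) was the second highest of 4828 NDRs, of which 4.31% were called. At 8.96 kb from the MET6 NDR, the NDR of SHC1 itself had 4.67 (SE 0.22). Between them, the NDRs at IES5 with 1.39 (SE 0.25), at TSC11, a TORC2 subunit gene, with 1.46 (SE 0.30) and at PUP3, a proteasome subunit gene, with 1.65 (SE 0.29) were called and gave less than MET6. Beyond MET6 on the far side, the NDRs at TRP2 and PTC2 had −0.46 to 0.28 and were not called. The base mean of the 9 neighbours was 15.4 to 274 reads, against 1772 reads at MET6. Over all NDRs from SHC1, log2 fold change rose with base mean (Spearman rho 0.56). The part of base mean in these differences was not tested.

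At the MET13 NDR the SHC1 strain had 1374 reads, against 819 reads in the control. Its log2 fold change of 0.75 (SE 0.12, adjusted p = 8.3e-08) was called, and ranked 181 in this table. It was 0.42 after subtraction of the median of NDRs of like base mean (0.33), which is under the cutoff. LSM4, a gene of RNA processing 45.1 kb from MET6 on chromosome V, was the farthest VP from MET6 on that chromosome. The MET6 NDR had 924 reads in the LSM4 strain, against 517 reads in the control, and its log2 fold change of 0.84 (SE 0.31, adjusted p = 0.0650) missed the threshold, where 4.23% of NDRs were called. MET13 had 1105 reads in the LSM4 strain, against 992 reads in the control (0.16, SE 0.15).

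**Figure D3:**
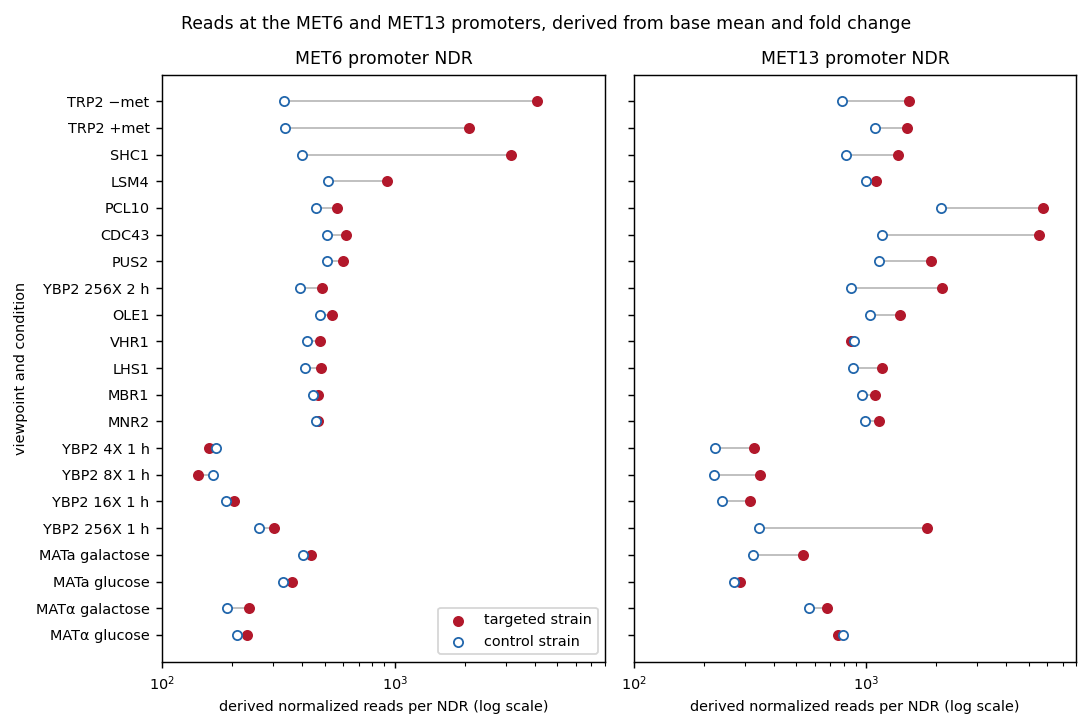
Reads per NDR derived from base mean and fold change (x axis, log scale) in the targeted strain (filled) and in the control strain (open) at the MET6 and MET13 NDRs in each table (rows). The MET6 NDR reaches 4072, 3145 and 2076 reads in the TRP2 and SHC1 strains and stays between 143 and 924 in the other targeted strains, while the MET13 NDR reaches 5746 and 5524 reads in the PCL10 and CDC43 strains.

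The VPs PCL10, CDC43, PUS2, YBP2 and OLE1 lie on chromosome VII with MET13, and at 2 h they share their control. PCL10, a cyclin gene of the kinase Pho85, is 15.4 kb away. The MET13 NDR had 5746 reads in the PCL10 strain, against 2093 reads in the control, with a log2 fold change of 1.46 (SE 0.30, adjusted p = 8.3e-04) where 0.601% of NDRs were called. CDC43, which encodes a subunit of a protein prenylation enzyme, is 57.1 kb away. There the MET13 NDR had 5524 reads in the CDC43 strain, against 1172 reads in the control, a log2 fold change of 2.24 (SE 0.16, adjusted p = 4.8e-42). It was the fourth highest of a table in which 2.71% were called. The 95% intervals (0.87 to 2.05 for PCL10, 1.93 to 2.55 for CDC43) overlap. The control libraries are the same, yet their derived level is 2093 reads in the PCL10 table and 1172 reads in the CDC43 table, so these fold changes give no order of PCL10 and CDC43. At MET6 the derived control level in the PCL10 table, 457 reads, lay within the 393 to 517 reads of the shared-control tables.

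PUS2, YBP2 and OLE1 lie on the other side of MET13 from PCL10 and CDC43. From PUS2, a pseudouridine synthase gene 112 kb away, the MET13 NDR had 1898 reads in the PUS2 strain, against 1129 reads in the control, and 0.75 (SE 0.25, adjusted p = 0.101) was not called, where 0.766% were. From YBP2, 119 kb away, it had 2111 reads in the YBP2 strain, against 857 reads in the control, and 1.30 (SE 0.16, adjusted p = 7.2e-14) was called, where 2.67% were. From OLE1, the fatty acid desaturase gene 128 kb away, it had 1398 reads in the OLE1 strain, against 1037 reads in the control, and 0.43 (SE 0.25, adjusted p = 0.509) was not called, where 0.311% were. Since they share a control they are given side by side and were not tested against each other. At MET6 the same 5 tables gave log2 fold changes of 0.17 to 0.31 and no call.

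VPs on chromosomes IX and XI called neither promoter. These are VHR1, a regulator of biotin genes, where 1.47% of NDRs were called, LHS1, a chaperone gene (3.94%), MBR1 (0.87%) and MNR2, a magnesium transporter gene (0.311%). At the MET13 NDR their derived levels were 856 to 1171 reads in the targeted strains, against 878 to 986 reads in the control, with log2 fold changes of −0.05 to 0.42. At the MET6 NDR they were 466 to 480 reads in the targeted strains, against 411 to 458 reads in the control, with 0.03 to 0.23. In each of these 4 tables the SE was 0.15 to 0.20, so fold changes as large as those called from TRP2 at MET6 or from CDC43 at MET13 lay outside the 95% intervals. Smaller called values did not all lie outside. The 0.75 called at MET13 from SHC1 lay inside the LHS1 interval (0.05 to 0.78). It lay above those of VHR1 (−0.34 to 0.23), MBR1 (−0.21 to 0.58) and MNR2 (−0.18 to 0.59).

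Calls around MET13 were not limited to its own NDR. The SCS3 NDR starts 411 bases before that of MET13 and 1183 bases before the gene, and reads that overlap several NDRs were counted in each, so both values rest in part on the same fragments. It was called in 5 tables, those that called the MET13 NDR without SHC1. From CDC43 it had 3218 reads in the CDC43 strain, against 1039 reads in the control (1.63, SE 0.17, adjusted p = 4.5e-19). From PCL10 it had 1.10 (SE 0.30), from YBP2 at 2 h 0.84 (SE 0.16), from TRP2 without methionine 0.81 (SE 0.14) and from SHC1 0.40 (SE 0.14). Each of these is below the value at MET13 in the same table.

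Of the 9 NDRs within 10 kb of the MET13 NDR, the other one called in any of these tables was that of SOH1, a Mediator subunit gene, which starts 0.944 kb away. It was called from CDC43 (1.29, SE 0.22) and from PCL10 (1.64, SE 0.22), where it exceeded MET13, and had 0.62 (SE 0.27) from YBP2 at 2 h. The next NDR, at CWC23 and 1.58 kb away, had −0.51 (SE 0.25) from CDC43 and −0.17 (SE 0.25) from PCL10. On the other side of the gene, the NDRs at MON1 and RPS2 had 0.30 to 0.49 from CDC43 and 0.07 to 0.64 from PCL10, none of them called. Neighbours other than SCS3 had base means of at most 144 reads in the CDC43 and PCL10 tables, with SEs of 0.22 to 0.32.

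**Figure D4:**
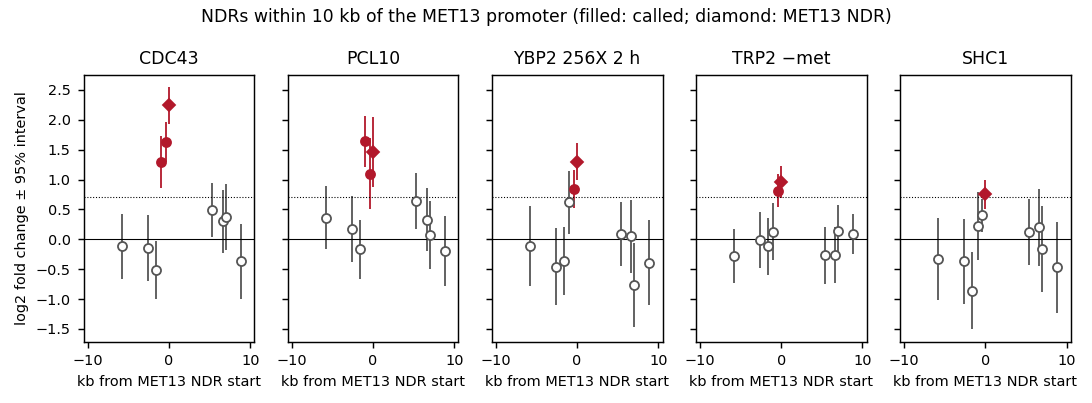
Log2 fold change with 95% interval (y axis) of the NDRs within 10 kb of the MET13 NDR against distance from its start in kb (x axis), for CDC43, PCL10, YBP2 with 256 copies at 2 h, TRP2 without methionine and SHC1. The diamond is the MET13 NDR and filled symbols are called NDRs. The calls sit within 1 kb of the MET13 NDR in all 5 panels.

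The number of LacO copies was varied at YBP2 after 1 h, with 1 shared control. At the MET13 NDR the derived level was 330 reads with 4 copies, 350 with 8, 316 with 16 and 1828 with 256, against 223, 221, 240 and 345 reads for the control in the same tables. The log2 fold changes were 0.57 (SE 0.18), 0.67 (SE 0.31), 0.40 (SE 0.18) and 2.41 (SE 0.19), with adjusted p of 0.277, 0.705, 0.892 and 6.3e-32. Only the strain with 256 copies was called, where it ranked second of all NDRs and 4.54% of NDRs were called. The tables with 4, 8 and 16 copies called 0.166%, 0.0414% and 0.166%. The values with 4, 8 and 16 copies were above 0 by their 95% intervals but failed the adjustment over all NDRs. At the MET6 NDR the 4 log2 fold changes were −0.10, −0.22, 0.12 and 0.21, all within their 95% intervals of 0.

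With 256 copies at YBP2, MET13 had the smaller fold change at the longer induction. The log2 fold change was 1.30 at 2 h and 2.41 at 1 h, a difference of −1.10 (SE 0.25, 95% interval −1.59 to −0.62, adjusted p = 0.00145) in a contrast where 1.82% of NDRs passed (46 higher and 42 lower at 2 h). The SCS3 NDR had 0.84 at 2 h and 2.26 at 1 h (difference −1.41, SE 0.25, adjusted p = 5.0e-06). SOH1 and the other 7 NDRs within 10 kb did not pass. Their differences ran from −1.13 (SE 0.51, an NDR at RPS2) to 0.50, with SEs of 0.43 to 0.63. A difference of the size at MET13 could therefore miss the threshold there. Levels in the targeted strain were 2111 reads at 2 h and 1828 reads at 1 h, and those of the control 857 reads at 2 h and 345 reads at 1 h, on scales set separately by the 2 tables. MET6 had a difference of 0.11 (SE 0.28, adjusted p = 0.982).

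The MAT locus on chromosome III called neither promoter in either mating type. Called NDRs made up 0.124% in MATa cells in galactose, 0.726% in MATa cells in glucose, 0.228% in MATα cells in galactose and 0.269% in MATα cells in glucose. The highest value was at MET13 in MATa cells in galactose, with 536 reads in the targeted strain, against 327 reads in the control (0.71, SE 0.22, adjusted p = 0.444). In glucose the MET13 NDR had 287 reads in the targeted MATa strain, against 270 reads in its control (0.09, SE 0.22). The difference between the galactose table, with HO induced, and the glucose table was 0.63 (SE 0.32), with an unadjusted p of 0.0474 and an adjusted p of 1.000, in a contrast where 0.311% of NDRs passed.

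In MATα cells the MET13 NDR had 676 reads in the targeted strain, against 567 reads in the control, in galactose (0.25, SE 0.24), and 759 reads in the targeted strain, against 790 reads in the control, in glucose (−0.06, SE 0.31). Between the galactose and glucose tables of MATα cells, MET13 differed by 0.31 (SE 0.40, where 0.0207% of NDRs passed). Between MATa and MATα cells in glucose it differed by 0.14 (SE 0.38, where also 0.0207% passed). Neither difference passed, with adjusted p of 0.999 each. At MET6 the differences were −0.00 (SE 0.30) for galactose against glucose in MATa cells, 0.19 (SE 0.35) for the same in MATα cells and −0.02 (SE 0.34) for MATa against MATα cells in glucose, and none passed. The reads at MET13 relative to the table's median NDR were not alike in strains that started as MATa and as MATα. Mating type cannot be told apart here from other differences between the strains and their libraries. The base mean was 13.5 and 11.8 times the median in MATa cells in galactose and glucose, and 39.5 and 43.9 times the median in MATα cells. At MET6 these ratios were 13.1 and 14.7 in MATa and 13.5 and 12.5 in MATα cells. The tables give no error for them.

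The MET13 NDR was among the NDRs with the most reads in most strains. Its base mean ranked 4 to 19 of all NDRs in the 11 tables with the shared 2 h control, ninth in both TRP2 tables, 9 to 36 at 1 h and 7 to 100 with MAT. That of MET6 ranked 6 to 90 with the shared control and 5 and 10 in the TRP2 tables, and its rank was best where it was called. The base mean includes the reads of the targeted strain, so a gain there raises the rank by construction.

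Placed in order, the log2 fold changes of MET6 fell into separate levels. TRP2 without methionine (3.60) stood above SHC1 (2.98) beyond the 95% intervals, SHC1 and TRP2 with methionine (2.63) overlapped, and both stood above LSM4 (0.84), which overlapped with the values after it. At MET13 each value overlapped with the next in size, from YBP2 with 256 copies at 1 h (2.41), CDC43 (2.24), PCL10 (1.46) and YBP2 at 2 h (1.30) to TRP2 without methionine (0.96), SHC1 (0.75), PUS2 (0.75) and below. Values farther apart did not all overlap, as for YBP2 with 256 copies at 1 h (2.03 to 2.79) and at 2 h (0.99 to 1.61). CDC43 and PCL10 are listed by size only.

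The other genes of the pathway came from a list of 42 genes for sulfate assimilation, methionine, cysteine, S-adenosylmethionine and one-carbon metabolism and their regulators. For 40 of them an NDR started within 1 kb of the gene, giving 52 NDRs. Of these, 14 were called in at least 1 table and 38 in none. MUP1 and 1 NDR of STR3, the cystathionine beta-lyase gene, were called in 13 tables each, more than MET13 (6) and MET6 (3). With TRP2 without methionine 4 list NDRs were called (7.69%, against 0.249% of all NDRs), at MET6, MUP1, MET13 and STR3. With methionine it was MET6 alone (1.92%, against 0.124% of all). These shares include the members, which define this part of the series, and MET6 lies within 30 kb of TRP2. With the members left out, 2 of 50 list NDRs were called without methionine and 0 of 50 with it. The median log2 fold change of the list was 0.02 in each medium, against −0.00 and 0.01 over all NDRs. The counts rest on the few genes named.

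Without methionine, MUP1 had 453 reads in the TRP2 strain, against 190 reads in the control (1.25, SE 0.16, adjusted p = 2.8e-12). With methionine it had 302 reads in the TRP2 strain, against 276 reads in the control (0.13, SE 0.18). The difference of 1.12 (SE 0.24) had an adjusted p of 0.00508. STR3 had 397 reads without methionine in the TRP2 strain, against 206 reads in the control (0.95, SE 0.16), and 283 reads with methionine, against 262 reads in the control (0.11, SE 0.18). Its difference of 0.83 (SE 0.24, adjusted p = 0.580) did not pass. Of the 52 list NDRs, 31 had the higher value without methionine (59.6%, against 50.8% of all NDRs), and the median difference was 0.07, against 0.00 over all NDRs.

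**Figure D5:**
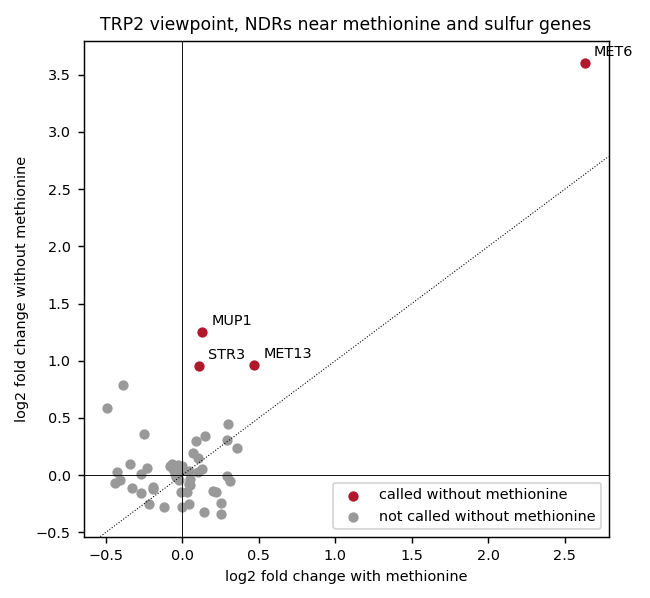
Log2 fold change from the TRP2 viewpoint without methionine (y axis) against that with methionine (x axis) for the 52 NDRs near methionine and sulfur genes. Red points were called without methionine (MET6 at 3.60, MUP1 at 1.25, MET13 at 0.96 and STR3 at 0.95), the dotted line marks equal values, and most points lie near 0 in both media.

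With SHC1, 7 list NDRs were called (13.5%, against 4.31% of all NDRs), which included MET6 and MET13, both STR3 NDRs, MUP1, MXR1, a methionine sulfoxide reductase gene, and ADO1, the adenosine kinase gene. Leaving out the members gave 5 of 50. The CDC43, PCL10 and YBP2 tables at 2 h each called 4 (7.69%, against 2.71%, 0.601% and 2.67% of all NDRs in that order of tables), which were MET13, MUP1 and both STR3 NDRs. All of these lie on the chromosome of the 3 VPs, and without the members each table called 3 of 50. List NDRs were also called from VPs that called neither member. VHR1 called 5 (9.62%, against 1.47% of all), LHS1 4 (7.69%, against 3.94%), LSM4 3 (5.77%, against 4.23%) and PUS2 3 (5.77%, against 0.766%). OLE1, MBR1 and MNR2 called 2 each (3.85%, against 0.311%, 0.87% and 0.311% of all in that order). Several of these calls lay on the chromosome of the VP, namely MET28 and both MET30 NDRs from VHR1, MET14 from LHS1 and MXR1 from LSM4. All other calls from these VPs were at STR3 and MUP1, which lie on the chromosome of PUS2 and OLE1. The part of position in the counts was not tested. From YBP2 with 256 copies at 1 h 7 list NDRs were called higher (13.5%, against 4.54% of all; 6 of 50 without the members), and another 3 of the 52 were lower than in the control, as were 155 of 4828 NDRs. None was called higher with MAT or with 4, 8 or 16 copies at YBP2. The list NDRs had the higher base means, with a median of 36.9 against 23.3 reads over all NDRs in the TRP2 table without methionine, and the part of this in the counts was not tested.

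The 5 NDRs whose log2 fold changes over the 17 tables with 256 copies labelled 2 h were most like those of MET6 all lay on chromosome V. They were near PTP3 (30.5 kb away, Pearson r = 0.928), IES5 (0.859 kb, 0.905), RPL34A (72.2 kb, 0.864), AST2 (19.8 kb, 0.857) and TRP2 (2.87 kb, 0.824). The 5 most like MET13 lay on chromosome VII, at SCS3 (0.411 kb, 0.965), RAD54 (75.2 kb, 0.814), TOS3 (106 kb, 0.792), RRT6 (41.9 kb, 0.777) and STR3 (116 kb, 0.776). Between MET6 and MET13 r was 0.133. These are descriptions over 17 points, of which 11 share a control pair.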

How the data were processed

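MeDIP-seq of MTAC strains had been compared by the authors, with 2 libraries per group. Per the submitters' processing notes and the study's methods, fastp 0.23.2 trimmed the reads, BWA 0.7.17 placed them on sacCer3, Picard marked duplicates and featureCounts 2.0.3 gave reads per NDR, where a fragment that overlaps several NDRs counts in each. The authors compared strains with DESeq2 1.38.0. The authors made coverage tracks with deepTools 3.5.1. The base mean in the deposited tables is a signal, the authors' size-factor normalized reads averaged over the libraries of a comparison. The log2 fold change and its SE in the deposited tables are the authors' values on the log2 scale. Fold change over SE is deposited as a score, the Wald statistic. The p-value columns of the deposited tables were not printed.

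The comparison columns were the only deposited values per NDR, so they served as the data, while p was recomputed from fold change and SE (normal, two-sided) with Benjamini-Hochberg adjustment across every NDR tested in that table. A table held up to 4828 NDRs. NDRs without an SE were left out. Derived levels are 2 × base mean × F/(1 + F) for the targeted and 2 × base mean/(1 + F) for the control strain, with F the fold change, which takes both groups as equal in number. They also take F as the ratio of the group means. Distances run from the NDR start to the midpoint of the gene that names the VP (TAF2 for MAT). Gene starts and DNA came from RefSeq R64, whose chromosomes hold all 4828 NDR starts. The motifs searched, on both strands, were the Cbf1 site CACGTG, the Met31 and Met32 core CTGTGG, and the GC dinucleotide.

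The text names the members in every table, the NDRs within 10 kb of them, the NDR just outside the 1 kb limit, the 5 most similar NDRs of each, and list genes called from TRP2. Other list genes, called from SHC1 or from other VPs, were named after their values were seen. The values of 1 NDR near that of MET6 are not reported here. The members and lists were chosen with earlier results of these data known. Alternatives were a log2 cutoff of 1 or none, the authors' adjusted p, a base mean of at least 10, subtraction of the table's median or of a running median over NDRs ordered by base mean, and a window of 0.5 kb for the list. The test was tried on simulated fold changes, drawn from a normal distribution with the deposited SEs. That trial could not check whether those SEs suit a normal test. Labels call the libraries replicates, the study calls them biologically independent. Python 3.11.15, numpy 2.4.6, scipy 1.17.1, pandas 2.3.3 and matplotlib 3.10.9 were used.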

Additional observations from a re-analysis of the deposited data

Results flagged for a closer look

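The MET6 NDR differed between media with the TRP2 viewpoint. The log2 fold change was higher without methionine by 0.97 (SE 0.20), with a Benjamini-Hochberg adjusted p of 0.00508 over 4827 NDRs, and the difference was 0.68 with an adjusted p of 1.000 after subtraction of a running median by base mean.

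The MET13 NDR differed between induction times with 256 copies at YBP2. The log2 fold change at 2 h minus that at 1 h was −1.10 (SE 0.25, adjusted p = 0.00145), and the SCS3 NDR beside it showed −1.41 (adjusted p = 5.0e-06).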

How the results depend on the processing

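MET6 was called in 3 tables with a log2 cutoff of 1, with none, by the authors' adjusted p, with a base mean minimum and with a running median subtracted. MET13 was called in 6 tables with no cutoff, by the authors' adjusted p and with the minimum, in 4 with a cutoff of 1 and in 5 with the running median, where SHC1 (0.42) was lost. Counting only viewpoints over 30 kb away or on another chromosome, chosen after seeing the data, gave 0 for MET6. The methionine difference at MET6 was 0.68 with a running median subtracted. With it, the difference for galactose against glucose in MATα cells at MET6 was −0.04, against 0.19 as reported. Uncalled fold changes that changed sign with the running median were, at MET6, CDC43 (−0.04), PUS2 (−0.02), YBP2 at 2 h (−0.16), VHR1 (−0.04), LHS1 (−0.19), MBR1 (−0.10), MNR2 (−0.08), YBP2 with 16 copies (−0.13) and with 256 copies at 1 h (−0.51) and MATa in galactose (−0.04), and, at MET13, LSM4 (−0.26) and MATα in glucose (0.12). Causes were not tested. List calls summed over the tables fell to 32 within 0.5 kb, against 52 within 1 kb, where fewer NDRs (37 of 52) are counted. No paired analysis was possible because the tables hold no value per library, and leaving out replicates was not run for the same reason. Depth per library is not given in the deposited tables, and SEs of 0.12 to 0.32 at the members limit what could be called.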
